A study of Homo sapiens with 9 samples.

Results

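The 9 genes described here encode chains of laminin-332, the integrins that bind it, and the proteins that tie those integrins to keratin filaments: LAMA3, LAMB3, ITGA3, ITGA6, ITGB4, ITGB1, CD151, PLEC and DST. They were taken by name from a given list, were found among the 58381 genes of the count tables by matching stable identifiers to symbols, and all 9 were among the 12814 genes with enough counts to test. RNA was measured in 9 libraries of EGI-1, an established human cholangiocarcinoma (bile duct cancer) cell line that carried a short hairpin RNA under a tetracycline-inducible promoter. GFPsh was the control hairpin, FOSL1sh3 and FOSL1sh10 were separate hairpins against FOSL1, and each had 3 libraries. All 9 libraries, controls included, came from cells given doxycycline at 2 ug per ml for 4 days, then seeded and grown for 24 hours before harvest. Results come from 1 cell line, and nothing in the labels says that replicates were separate cultures, so p-values measure the spread between these libraries, which may be technical.

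Laminin-332 is a basement membrane protein whose chains include an alpha chain (LAMA3) and a beta chain (LAMB3). Epithelial cells hold it with integrins. ITGA6 pairs with ITGB4 to form the receptor of the hemidesmosome, a junction whose inner plaque proteins plectin (PLEC) and dystonin (DST) connect the receptor to keratins, whereas ITGA3 or ITGA6 paired with ITGB1 links laminin to the actin cytoskeleton. The tetraspanin CD151 associates with these laminin-binding integrins. FOSL1 encodes FRA-1, a subunit of the AP-1 transcription factor, and the comparison asked how these transcripts differ when FOSL1 is reduced.

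Libraries held 6893026 to 10604251 counts. Levels are given as CPM, counts scaled to a common library size of 1 M counts after TMM scaling (trimmed mean of M-values, which evens out differences in composition between libraries). The targeted gene FOSL1, at 65892049 to 65900573 on the minus strand of chromosome 11 (hg38), had 182 to 303 CPM in GFPsh, 44.9 to 72.3 CPM with FOSL1sh3 and 57.1 to 70.9 CPM with FOSL1sh10. It fell by 1.98 and 1.94 on the log2 scale with FOSL1sh3 and FOSL1sh10, and between the hairpins it differed by -0.05 (95% interval -0.46 to 0.36), less than the spread between replicates. The labelled epithelial type was checked on its markers: all 8 biliary and simple epithelial markers had counts in all 9 libraries, with summed levels of 10946 to 11785 CPM in GFPsh, 12228 to 13589 with FOSL1sh3 and 10994 to 12961 with FOSL1sh10. Of that list KRT7, a simple epithelial keratin, rose with both hairpins (0.46 and 0.71), the first call ending without any 1 GFPsh library or FOSL1sh3 replicate 1 or 3 (adjusted p 0.0955 to 0.132, edgeR) and under 4 other settings (0.0507 to 0.0833). Between the hairpins 3 of the 8 were called (1 higher and 2 lower with FOSL1sh3). The share of all genes was 12.7% (5.74% higher, 7.00% lower). Among the 3 was SOX9, a biliary transcription factor, at a log2 difference of -0.80. The others were KRT19 (0.50), lost without replicate 1 or 3 of FOSL1sh3 or 1 or 2 of FOSL1sh10 (0.0541 to 0.123) and with library totals (0.0938), and EPCAM (-0.49), lost without replicate 1 or 3 of FOSL1sh3 or any 1 FOSL1sh10 library (0.0603 to 0.179) and with only both groups fitted (0.0686). Other cell types gave little signal: 8 leukocyte markers summed to 2.93 to 4.63 CPM in GFPsh, 5.23 to 6.78 with FOSL1sh3 and 5.13 to 8.97 with FOSL1sh10, and CD3E, CD68 and MS4A1 had 0 counts throughout. For 9 stromal and vessel markers the sums were 2.93 to 4.74, 4.31 to 8.02 and 8.13 to 9.58 CPM, with COL3A1, DCN, LUM and PDGFRB at 0, and for 6 hepatocyte markers 6.28 to 7.31, 8.08 to 11.6 and 13.8 to 17.6 CPM, with CYP3A4 at 0. All 3 sums were higher in all FOSL1sh10 libraries than in all controls, and the leukocyte and hepatocyte sums also in all FOSL1sh3 libraries. The hepatocyte sum was almost wholly SERPINA1, a protease inhibitor, at 6.24 ± 0.82, 9.11 ± 1.59 and 15.0 ± 2.20 CPM (SD, n = 3 each), with log2 fold changes of 0.56 with FOSL1sh3 (adjusted p = 0.116) and 1.27 with FOSL1sh10 (0.00141, edgeR). CD14 was the 1 leukocyte marker with enough counts to test, at means of 3.82, 6.11 and 7.01 CPM. COL1A1 was the 1 such stromal and vessel marker, at means of 3.14, 4.73 and 5.42 CPM. Neither was called with either hairpin by edgeR. All 9 libraries are labelled as 1 cell line, and whether other cell types had any part in the results was not tested. Fewer cells of a kind and less RNA per cell cannot be told apart in bulk RNA.

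Across the 9 genes, FOSL1sh3 and FOSL1sh10 gave different results. Against GFPsh, 5 of 9 genes passed an adjusted p under 0.05 with FOSL1sh3 (edgeR quasi-likelihood test, Benjamini-Hochberg over all genes tested), where 10.9% of all genes did. LAMB3, ITGA3, ITGB4 and PLEC rose (5.21% of all genes were called higher) and DST fell (5.65% lower). With FOSL1sh10, 0 of 9 genes were called by edgeR, DESeq2 or limma-voom, 2 had an unadjusted p under 0.05, and 5.28% of all genes were called (3.13% higher, 2.15% lower). The median log2 fold change of the 9 genes was 0.34 with FOSL1sh3 and 0.00 with FOSL1sh10, beside 0.01 and 0.00 over all genes tested. Both comparisons used the same control libraries. The FOSL1sh3 count was 3 of 9 if any of GFPsh replicates 1 and 2 and FOSL1sh3 replicates 1 and 3 was left out, the calls on LAMB3 and DST being the ones lost, whereas those on ITGB4, ITGA3 and PLEC were made under all 13 alternatives run.

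**Figure D1:**
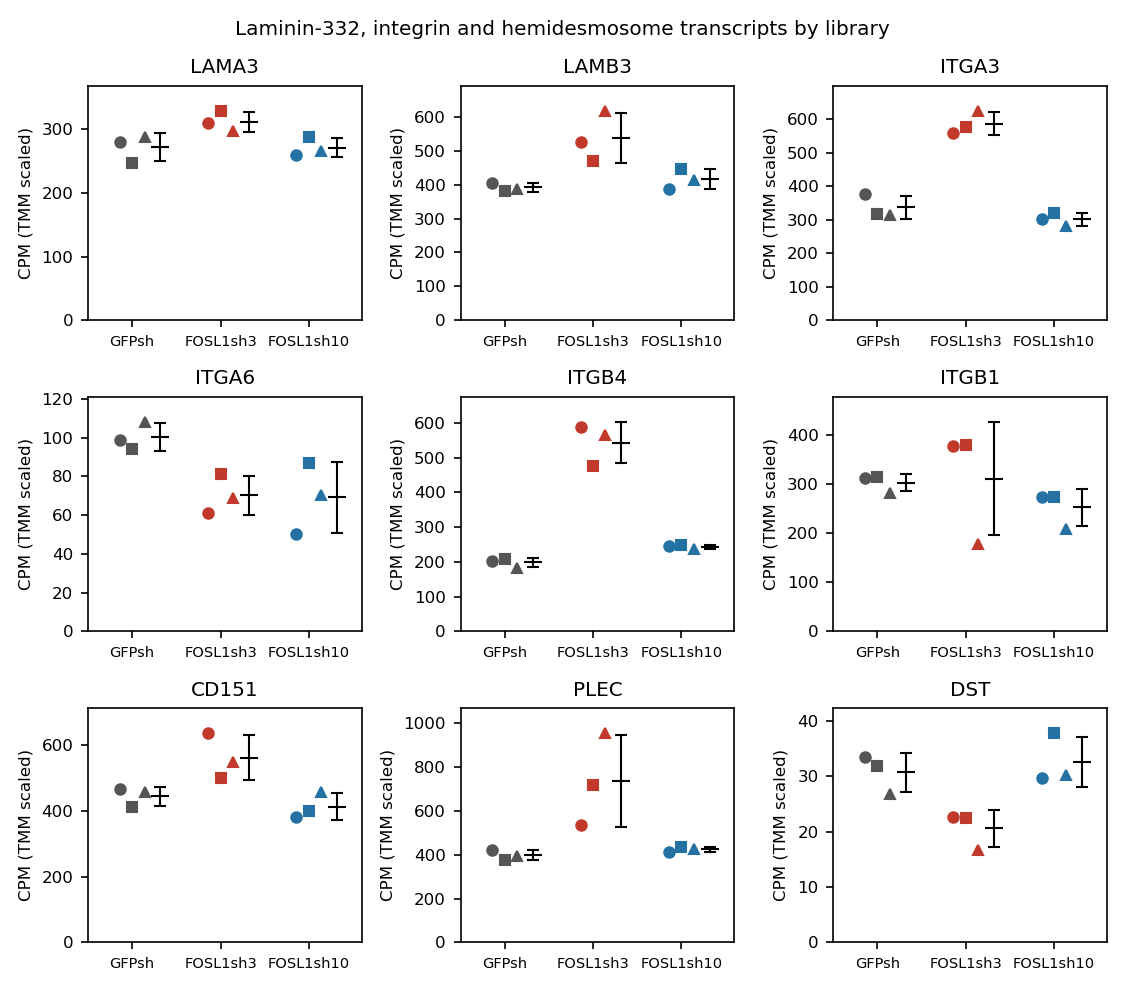
Transcript level of each of the 9 genes in every library (y axis, CPM scaled by TMM, starting at 0), by hairpin group; circles, squares and triangles are replicates 1, 2 and 3, and black bars are the mean and SD of 3 libraries. ITGB4, ITGA3, PLEC, LAMB3, CD151 and, by a small margin, LAMA3 are higher in all FOSL1sh3 libraries than in all others. Of all genes, 29.2% did not overlap in FOSL1sh3 against GFPsh and 30.7% in FOSL1sh3 against FOSL1sh10, in either direction. ITGA6 is lower in all 6 libraries with a FOSL1 hairpin than in the controls, and ITGB1 has 1 low FOSL1sh3 library.

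LAMA3 (chromosome 18, 23689443 to 23955066, plus strand), the laminin alpha chain, was at 280.2, 247 and 288 CPM in GFPsh replicates 1, 2 and 3. FOSL1sh3 libraries held 310.0, 329 and 297 CPM, and FOSL1sh10 libraries 259.9, 288 and 266 CPM. FOSL1sh3 was thus above the controls by a small margin, and FOSL1sh10 overlapped them. Neither difference was called: the log2 fold change was 0.20 with FOSL1sh3 (95% interval -0.07 to 0.47, adjusted p = 0.348) and 0.00 with FOSL1sh10 (-0.27 to 0.27, adjusted p = 0.995, edgeR).

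The laminin beta chain LAMB3 (chromosome 1, 209614870 to 209652466, minus strand) was at 406, 381 and 387 CPM in GFPsh. Its levels were 526, 470.4 and 616 CPM with FOSL1sh3 and 387, 446 and 413 CPM with FOSL1sh10. All FOSL1sh3 libraries lay above all libraries of both other groups, while FOSL1sh10 overlapped GFPsh. LAMB3 rose by 0.46 with FOSL1sh3 (95% interval 0.17 to 0.75, adjusted p = 0.0383, edgeR), and its log2 fold change with FOSL1sh10 was 0.09 (-0.20 to 0.37, adjusted p = 0.797). The call was lost when any 1 GFPsh library, or FOSL1sh3 replicate 1 or 3, was left out (adjusted p 0.0638 to 0.138), with library totals alone (0.0808), with no low-count filter (0.0588) and when only both groups compared were fitted (0.072). FOSL1sh3 against FOSL1sh10 gave 0.37 (0.08 to 0.66, adjusted p = 0.0828), so the difference between the hairpins did not pass.

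Promoter windows from RefSeq (GRCh38.p14), 250 bases before to 50 after each listed start, were searched for the AP-1 consensus TGACTCA on both strands, since FOSL1 encodes an AP-1 subunit. There were 11 such windows for LAMA3, LAMB3, ITGA6, ITGB1 and DST. The promoters of ITGA3, ITGB4, CD151 and PLEC were not analysed here. A match was found for LAMA3 (beginning 125 and 69 bases before the start, the second on the opposite strand), at 1 of 3 LAMB3 starts (67 bases before) and at 1 of 3 DST starts (25 bases after, on the opposite strand), and in 1738 of 35116 windows of 300 bases (4.95%). The 150 bases before the matching LAMA3 and LAMB3 starts are shown because these genes encode chains of 1 laminin and both hold the consensus, and a 29-base stretch around the DST match is shown beside them. Capitals mark the consensus or its reverse complement, and each sequence runs 5′ to 3′ on the strand of its gene: LAMA3 chr18:23872870-23873019 (plus), LAMB3 chr1:209651375-209651524 (minus) and DST chr6:56954788-56954816 (minus).
LAMA3: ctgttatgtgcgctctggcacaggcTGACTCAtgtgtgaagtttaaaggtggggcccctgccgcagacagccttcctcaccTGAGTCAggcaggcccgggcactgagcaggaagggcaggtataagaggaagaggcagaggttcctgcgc
LAMB3: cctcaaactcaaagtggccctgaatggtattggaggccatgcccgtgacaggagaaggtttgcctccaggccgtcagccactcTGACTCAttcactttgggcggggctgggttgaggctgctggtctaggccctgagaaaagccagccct
DST: tcgctgtctgcTGAGTCAtggcaagcgct
Both laminin starts lie downstream of the first base that the count tables give these genes, and counts per gene do not say which start was used. A match describes letters and not binding.

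ITGB4 (chromosome 17, 75721328 to 75757818, plus strand), the beta chain of the hemidesmosome integrin, was at 204, 209 and 183 CPM in GFPsh. With FOSL1sh3 it stood at 588, 475 and 564 CPM, and with FOSL1sh10 at 244, 249 and 236 CPM. The 3 groups did not overlap: GFPsh was lowest, FOSL1sh10 next and FOSL1sh3 highest. ITGB4 rose 2.73-fold with FOSL1sh3 (log2 fold change 1.45, 95% interval 1.16 to 1.73, adjusted p = 8.28e-06, edgeR), ranking number 4 of 12814 genes by p. With FOSL1sh10 the log2 fold change was 0.29 (0.01 to 0.57, unadjusted p = 0.0429, adjusted p = 0.237), which was not called. FOSL1sh3 exceeded FOSL1sh10 by 1.16 (0.88 to 1.44, adjusted p = 2.56e-05), the test of the difference between hairpins itself.

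Its partner ITGA6 (chromosome 2, 172427354 to 172506282, plus strand) was at 98.9, 94.2 and 108 CPM in GFPsh. Values were 61.1, 81.1 and 68.7 CPM with FOSL1sh3 and 50.4, 86.9 and 70.5 CPM with FOSL1sh10. All 6 libraries with a FOSL1 hairpin were below all 3 controls, and the hairpins overlapped each other. Neither hairpin alone passed: the log2 fold change was -0.52 with FOSL1sh3 (95% interval -0.88 to -0.15, adjusted p = 0.0621) and -0.53 with FOSL1sh10 (-0.90 to -0.17, adjusted p = 0.0825, edgeR). FOSL1sh3 against FOSL1sh10 gave 0.02 (-0.35 to 0.38). As the mean of both hairpins, ITGA6 fell by 0.52 (adjusted p = 0.0401), but this call was lost when any 1 GFPsh library, or replicate 1 or 3 of either hairpin, was left out (0.0518 to 0.161), and with library totals alone (0.0658). PDK1-AS1, which shares 52 exon bases with ITGA6 on the opposite strand, averaged 10.6 counts against 672 for ITGA6 and was not called.

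In that mean comparison 2 of 9 genes were called, ITGB4 higher (0.87, adjusted p = 0.000273, edgeR) and ITGA6 lower, against 6.22% of all genes (3.25% higher, 2.97% lower). They were also the 2 genes whose 6 hairpin libraries did not overlap the controls, which held for 9.66% of all genes. With any 1 GFPsh library, FOSL1sh3 replicate 3, or FOSL1sh10 replicate 1 or 3 left out, ITGB4 alone was called, and without FOSL1sh3 replicate 1 ITGB4 and PLEC were. With all libraries PLEC missed at 0.50 (adjusted p = 0.0543), and it passed without FOSL1sh3 replicate 1 (0.00971), with DESeq2 (0.0236) and with no low-count filter (0.0138).

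Since ITGB4 and ITGA6 form 1 receptor, their counts were set against each other within each library. The log2 ratio of ITGB4 to ITGA6 was 1.04, 1.15 and 0.76 in GFPsh. It was 3.27, 2.55 and 3.04 with FOSL1sh3 and 2.28, 1.52 and 1.74 with FOSL1sh10. Every FOSL1 hairpin library had a higher ratio than every control, and every FOSL1sh3 library a higher ratio than every FOSL1sh10 library. Averaged over both hairpins the ratio was 2.66-fold higher (log2 difference 1.41, two-sided exact permutation p = 0.0238 for 6 against 3 libraries, the smallest p this design allows). Adjusted over the 4 pairs examined the p was 0.0952 and did not pass. The difference was 1.97 with FOSL1sh3 and 0.86 with FOSL1sh10, each with an exact p of 0.1, the smallest that 3 against 3 can give. The protocol counts tags near the ends of transcripts, and how fully each transcript is captured was not measured. These ratios thus compare groups and give no molar ratio.

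**Figure D2:**
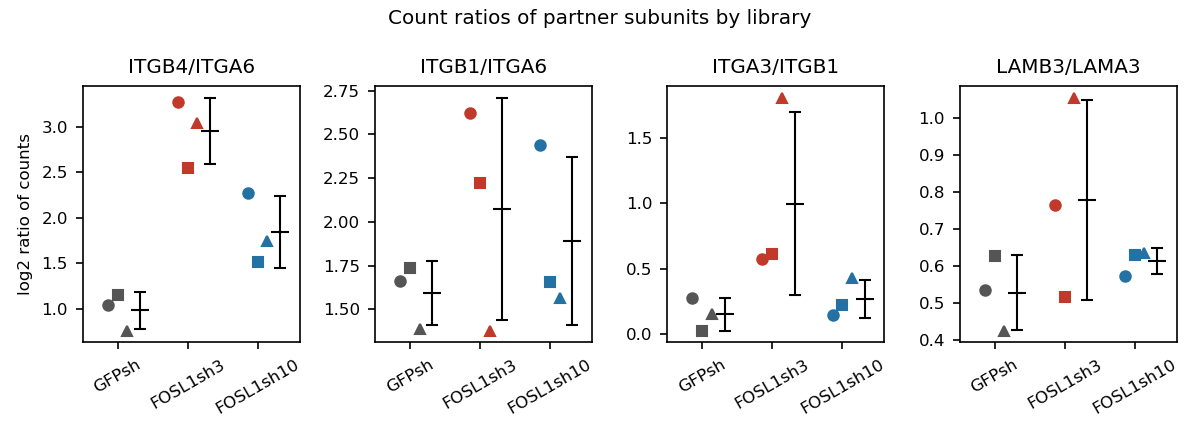
Log2 ratio of counts for 4 pairs of partner subunits in each library (y axes differ in range and do not start at 0), by hairpin group; circles, squares and triangles are replicates 1, 2 and 3, and black bars are the mean and SD. The ITGB4 to ITGA6 ratio lies between 0.76 and 1.15 in the controls and between 1.52 and 3.27 in the other 6 libraries, whereas the groups overlap for ITGB1 to ITGA6 and for LAMB3 to LAMA3.

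ITGA3 (chromosome 17, 50055968 to 50090481, plus strand), the alpha chain of the other main laminin-332 receptor, was at 378, 319 and 314 CPM in GFPsh. FOSL1sh3 libraries were at 561, 577 and 625 CPM, and FOSL1sh10 libraries at 303, 319.9 and 282 CPM. FOSL1sh3 stood apart from both other groups, which overlapped. ITGA3 rose by 0.80 with FOSL1sh3 (95% interval 0.52 to 1.08, adjusted p = 0.00132, edgeR). With FOSL1sh10 the log2 fold change was -0.16 (-0.44 to 0.12, adjusted p = 0.56). Between the hairpins it was 0.96 higher with FOSL1sh3 (0.68 to 1.24, adjusted p = 0.000182).

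ITGB1 (chromosome 10, 32900319 to 33005792, minus strand), the beta chain shared by most integrins, was at 313, 314 and 282 CPM in GFPsh. With FOSL1sh3 it was at 376, 378 and 179 CPM, and with FOSL1sh10 at 274, 274 and 209 CPM. FOSL1sh3 replicate 3 was the lowest of all 9 libraries, while the other two FOSL1sh3 libraries were the highest. The log2 fold changes of 0.04 (95% interval -0.40 to 0.48) with FOSL1sh3 and -0.26 (-0.71 to 0.18) with FOSL1sh10 were not called (adjusted p = 0.931 and 0.549, edgeR). Without FOSL1sh3 replicate 3 the first was 0.32 (adjusted p = 0.223), and FOSL1sh3 exceeded FOSL1sh10 by 0.58 (adjusted p = 0.0201), against 0.30 (adjusted p = 0.368) with it. The same library had the lowest FOSL1 level of the 9 (44.9 CPM) and their highest PLEC, LAMB3 and ITGA3. ITGB1-DT, whose exons share 42 bases with ITGB1 on the opposite strand, averaged 81.1 counts against 2412 for ITGB1 and was not called with either hairpin.

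For the other subunit pairs the 6 hairpin libraries overlapped the controls. The log2 ratio of ITGB1 to ITGA6 was 1.59 ± 0.18 in GFPsh, 2.07 ± 0.64 with FOSL1sh3 and 1.89 ± 0.48 with FOSL1sh10 (SD, n = 3 each), a difference for both hairpins of 0.39 (exact permutation p = 0.381). ITGA3 to ITGB1 was 0.27, 0.02 and 0.16 in GFPsh and 0.58, 0.61 and 1.81 with FOSL1sh3, where replicate 3 is the library with low ITGB1. FOSL1sh10 had 0.15, 0.22 and 0.43, so FOSL1sh3 lay above both other groups (exact p = 0.1 for each, the smallest possible). Over both hairpins that ratio differed by 0.48 (exact p = 0.119), and by 0.24 without FOSL1sh3 replicate 3. LAMB3 to LAMA3 differed by 0.17 (exact p = 0.167), and by 0.10 without that library. None of these 3 passed after adjustment over the 4 pairs (0.222 to 0.381).

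CD151 (chromosome 11, 832843 to 839831, plus strand), the tetraspanin partner of laminin-binding integrins, was at 466, 411 and 456 CPM in GFPsh. FOSL1sh3 gave 636, 499.7 and 549 CPM, and FOSL1sh10 gave 382, 399 and 458 CPM. FOSL1sh3 lay above both other groups without overlap. Against GFPsh the log2 fold changes were 0.34 (95% interval 0.05 to 0.63, adjusted p = 0.125) with FOSL1sh3 and -0.11 (-0.40 to 0.19, adjusted p = 0.746) with FOSL1sh10, neither called by edgeR. Between the hairpins CD151 was 0.44 higher with FOSL1sh3 (0.15 to 0.74, adjusted p = 0.043). That call ended without FOSL1sh3 replicate 1 or 3 or any 1 FOSL1sh10 library (0.0559 to 0.15), with library totals alone (0.197), with no low-count filter (0.0557) and when only both groups were fitted (0.0624). The last exons of CD151 share 257 bases with POLR2L, an RNA polymerase subunit gene on the opposite strand, and the counting command set no strand option, so reads there cannot be told apart. POLR2L averaged 11114 counts against 3983 for CD151, and the shared bases reach the 3′ end of CD151. It was not called with either hairpin (0.15 and 0.07) or between them (0.08, adjusted p = 0.769, edgeR). How far this overlap affects the CD151 level was not tested.

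PLEC (chromosome 8, 143915147 to 143976734, minus strand) encodes plectin, the plakin that binds the tail of the ITGB4 chain and keratin filaments. Control levels were 419, 374 and 396 CPM. They were 537, 718 and 953 CPM with FOSL1sh3 and 412, 434 and 427 CPM with FOSL1sh10. FOSL1sh3 libraries all exceeded the rest but spread widely among themselves, while FOSL1sh10 overlapped GFPsh. PLEC rose by 0.89 with FOSL1sh3 (95% interval 0.54 to 1.25, adjusted p = 0.00319, edgeR), and by 0.66 without its highest library, replicate 3 (adjusted p = 0.0133). With FOSL1sh10 the log2 fold change was 0.10 (-0.25 to 0.45, adjusted p = 0.813). The hairpins differed by 0.79 (0.44 to 1.15, adjusted p = 0.00504).

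DST (chromosome 6, 56457987 to 56954628, minus strand) encodes dystonin, whose epithelial form is the other plakin of the inner plaque, and its counts join all forms of the gene. It was the member with the fewest counts, 131 to 334 per library. Levels were 33.5, 31.8 and 26.8 CPM in GFPsh, 22.6, 22.5 and 16.7 CPM with FOSL1sh3, and 29.7, 37.8 and 30.3 CPM with FOSL1sh10. FOSL1sh3 was below both other groups, which overlapped. DST fell by 0.57 with FOSL1sh3 (95% interval of the log2 fold change -0.94 to -0.21, adjusted p = 0.0409, edgeR), and the log2 fold change with FOSL1sh10 was 0.09 (-0.27 to 0.44, adjusted p = 0.843). Leaving out any of GFPsh replicates 1 and 2 and FOSL1sh3 replicates 1 and 3 ended the FOSL1sh3 call (0.0517 to 0.162), as did a fit of both groups alone (0.0754). FOSL1sh3 against FOSL1sh10 was -0.66 (-1.03 to -0.30, adjusted p = 0.0189), a call that ended without FOSL1sh3 replicate 3 (0.0666) or FOSL1sh10 replicate 2 (0.126). PLEC and DST, both plaque plakins, were thus called in opposite directions with FOSL1sh3.

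**Figure D3:**
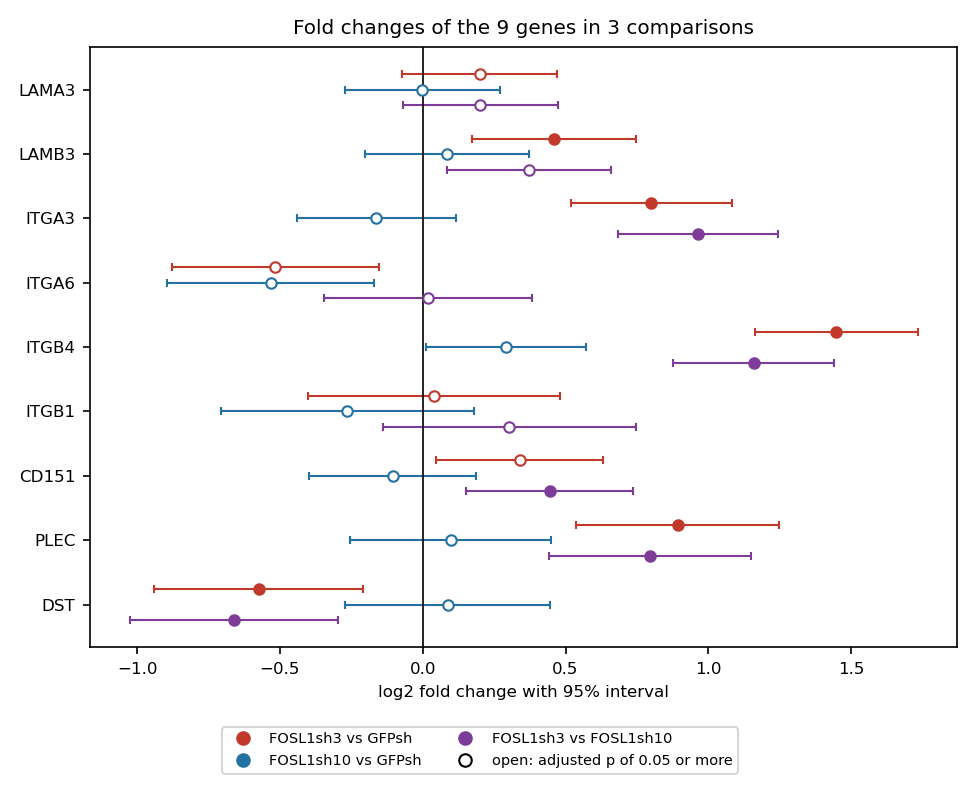
Log2 fold change of each of the 9 genes (x axis) with its 95% interval in 3 comparisons; filled points have an adjusted p under 0.05 and open points do not. ITGB4 at 1.45 is the highest with FOSL1sh3 and ITGA6 at -0.53 the lowest with FOSL1sh10, where all 9 points are open.

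Set against each other, the hairpins differed in 5 of 9 genes, where 12.7% of all genes were called (5.74% higher, 7.00% lower). ITGB4, ITGA3, PLEC and CD151 were higher with FOSL1sh3 and DST was lower. Without FOSL1sh10 replicate 2 the count was 3, because the calls on CD151 and DST ended. Groups did not overlap for 7 of 9 genes in this comparison (30.7% of all genes), for 8 of 9 in FOSL1sh3 against GFPsh (29.2%) and for 3 of 9 in FOSL1sh10 against GFPsh (27.3%). In FOSL1sh10 against GFPsh the genes without overlap were ITGB4, higher, and ITGA6 and ITGB1, lower.

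Other genes of the basement membrane and of cell adhesion were counted from lists, and are given as counts beside the same background. Of the other laminin chains 7 of 10 were tested. LAMA4 (mean of 33.4 CPM in GFPsh and 68.7 with FOSL1sh3, log2 fold change 1.04) and LAMA5 (means of 161 and 248 CPM, 0.63), alpha chains of other laminins, rose with FOSL1sh3, and the list median was 0.12 (-0.08 with FOSL1sh10). With FOSL1sh10 none of the 7 was called by edgeR, DESeq2 or limma-voom, and 0 had an unadjusted p under 0.05. LAMB2 was 1.09 higher with FOSL1sh3 than with FOSL1sh10 (adjusted p = 0.0165, edgeR), a call that ended without FOSL1sh3 replicate 3 or FOSL1sh10 replicate 2 (0.0643 to 0.0916).

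Among 15 other basement membrane genes 6 were tested. COL7A1, the collagen of the anchoring fibrils that attach to laminin-332, rose with both hairpins, by 0.92 with FOSL1sh3 and 1.30 with FOSL1sh10, where control libraries averaged 2.87 ± 0.80 CPM and hairpin libraries 5.40 ± 0.51 and 6.99 ± 1.15 CPM (SD, n = 3 each). Its FOSL1sh3 call ended without GFPsh replicate 2 or 3 or any 1 FOSL1sh3 library (adjusted p 0.0554 to 0.16, edgeR) and under 4 other settings (0.0573 to 0.0813), and its FOSL1sh10 call without GFPsh replicate 2 or FOSL1sh10 replicate 2 (0.0547 to 0.0571). COL4A4, a type IV collagen chain, fell by 1.05 with FOSL1sh10 and stood at -0.19 with FOSL1sh3, which was not called.

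Of 8 other plaque, plakin and keratin genes 7 were tested. With FOSL1sh3 2 were called higher (5.21% of all genes). With FOSL1sh10 1 was called higher (3.13%) and 1 lower (2.15%). PPL and EVPL, the plakins periplakin and envoplakin, rose by 1.30 and 0.82 with FOSL1sh3. With FOSL1sh10 their log2 fold changes were -0.31 and 0.10, not called. FOSL1sh3 exceeded FOSL1sh10 by 1.62 for PPL (adjusted p = 7.46e-06, edgeR) and by 0.71 for EVPL (0.0116), the latter ending without FOSL1sh3 replicate 3 or FOSL1sh10 replicate 1 or 3 (0.0552 to 0.0597). COL17A1, the transmembrane collagen of the hemidesmosome, averaged 53.7 ± 3.95 CPM in GFPsh, 43.3 ± 0.56 in FOSL1sh3 and 27.1 ± 1.83 in FOSL1sh10 libraries (SD, n = 3 each). It fell by 0.99 with FOSL1sh10 (adjusted p = 0.000214) and was at -0.31 with FOSL1sh3 (adjusted p = 0.145), and the hairpins differed by 0.68 (adjusted p = 0.00394). KRT5, a basal keratin that hemidesmosomes anchor, rose by 1.81 with FOSL1sh10, from 121 ± 9.17 to 423 ± 33.1 CPM, and FOSL1sh3 lay below FOSL1sh10 (log2 difference -1.41, adjusted p = 3.06e-06). With FOSL1sh3 it averaged 159 ± 3.76 CPM, above all controls, at 0.40 against GFPsh, which edgeR did not call (adjusted p = 0.0567) and DESeq2 (0.0254) and limma-voom (0.0454) did.

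Of 8 other laminin receptors 6 were tested. The syndecans SDC1 and SDC4, proteoglycans that bind laminin, rose by 0.82 and 0.87 with FOSL1sh3, and the integrin alpha chain ITGA1 fell by 1.23 from 4.30 CPM. With FOSL1sh10 none was called by edgeR, DESeq2 or limma-voom, and 2 had an unadjusted p under 0.05. One of these was ITGA1, at -1.13 with all FOSL1sh10 libraries below the controls (unadjusted p = 0.00837, adjusted p = 0.0975, edgeR), and FOSL1sh3 and FOSL1sh10 differed by -0.10 (adjusted p = 0.899). For SDC1 the hairpins differed by 0.69 (adjusted p = 0.00334, edgeR). SDC4 was at 0.38 with FOSL1sh10 (adjusted p = 0.305), and its difference between hairpins of 0.49 did not pass (adjusted p = 0.112). SDC4 lost its call without GFPsh replicate 1 or FOSL1sh3 replicate 3 (adjusted p 0.0534 to 0.0596, edgeR). ITGA1 lost it when any 1 GFPsh library, or FOSL1sh3 replicate 1 or 3, was left out (0.0547 to 0.232), with only both groups fitted and with a replicate block (0.0628 to 0.0728). Among 9 tested of 12 other tetraspanins, TSPAN13 fell by 1.05 with FOSL1sh3, a call that ended without GFPsh replicate 3 or FOSL1sh3 replicate 1 or 3 (0.0571 to 0.066). CD82, a tetraspanin known as a metastasis suppressor, rose by 0.98 with FOSL1sh10 and was at -0.02 with FOSL1sh3, a difference between hairpins of -0.99 (adjusted p = 0.000533). CD9 and CD81, tetraspanins that also associate with integrins, were 0.60 and 0.48 higher with FOSL1sh3 than with FOSL1sh10, and both calls ended with library totals alone (0.0626 and 0.136) and when some single libraries were left out (FOSL1sh3 replicate 2 or FOSL1sh10 replicate 2 or 3 for CD9, 0.0592 to 0.0905, and all but FOSL1sh3 replicate 2 of the 6 libraries for CD81, 0.0518 to 0.0915). Against GFPsh, CD81 was at 0.39 with FOSL1sh3, not called by edgeR (adjusted p = 0.065) but called by DESeq2 (0.0272), by limma-voom (0.0474) and by edgeR without FOSL1sh3 replicate 2 (0.0459).

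Of 16 adaptors that couple integrins to actin, 15 were tested and 1 was called with FOSL1sh3 (against 10.9% of all genes). That was PXN, the focal adhesion scaffold paxillin, which rose by 0.58 (adjusted p = 0.0232, edgeR), a call lost when GFPsh replicate 2, GFPsh replicate 3 or FOSL1sh3 replicate 3 was left out (0.0596 to 0.112). With FOSL1sh10 the count was 0 by edgeR, 1 by DESeq2 and 0 by limma-voom, with 3 genes at an unadjusted p under 0.05. PXN was 1 of these 3, at 0.40 (unadjusted p = 0.0186, adjusted p = 0.153, edgeR). For PXN the hairpins differed by 0.18 (adjusted p = 0.479). As the mean of both hairpins PXN rose by 0.49 (adjusted p = 0.0399), a call lost without any 1 of 5 libraries (0.0504 to 0.211). Between the hairpins 5 of the 15 were called, 2 higher and 3 lower with FOSL1sh3, where 12.7% of all genes were. Among them were TNS4 (0.43), FERMT1 (-0.49) and LIMS1 (-0.40). The call on TNS4 ended without any 1 of the 6 libraries (adjusted p 0.051 to 0.145, edgeR). Library totals, no low-count filter, only both groups fitted or a replicate block also ended it (0.0522 to 0.205). LIMS1 lost its call without FOSL1sh3 replicate 1 or 3 or any 1 FOSL1sh10 library (0.0762 to 0.205). RLE scaling in place of TMM, no filter, only both groups or a block did the same (0.0536 to 0.114). FERMT1 lost its call without FOSL1sh3 replicate 3 or any 1 FOSL1sh10 library (0.069 to 0.147). Of 6 genes for proteases linked to the processing of laminin-332, plasminogen activators among them, 4 were tested. PLAT, tissue plasminogen activator, rose with both hairpins (0.95 and 1.20), BMP1 rose with FOSL1sh3 (0.94) and PLAU, urokinase, with FOSL1sh10 (1.17). For PLAU the hairpins differed by -0.93 (adjusted p = 0.00033), and for BMP1 by 0.42 (adjusted p = 0.0843), which did not pass. The median of the 4 was 0.59 with FOSL1sh3 and 0.84 with FOSL1sh10.

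**Figure D4:**
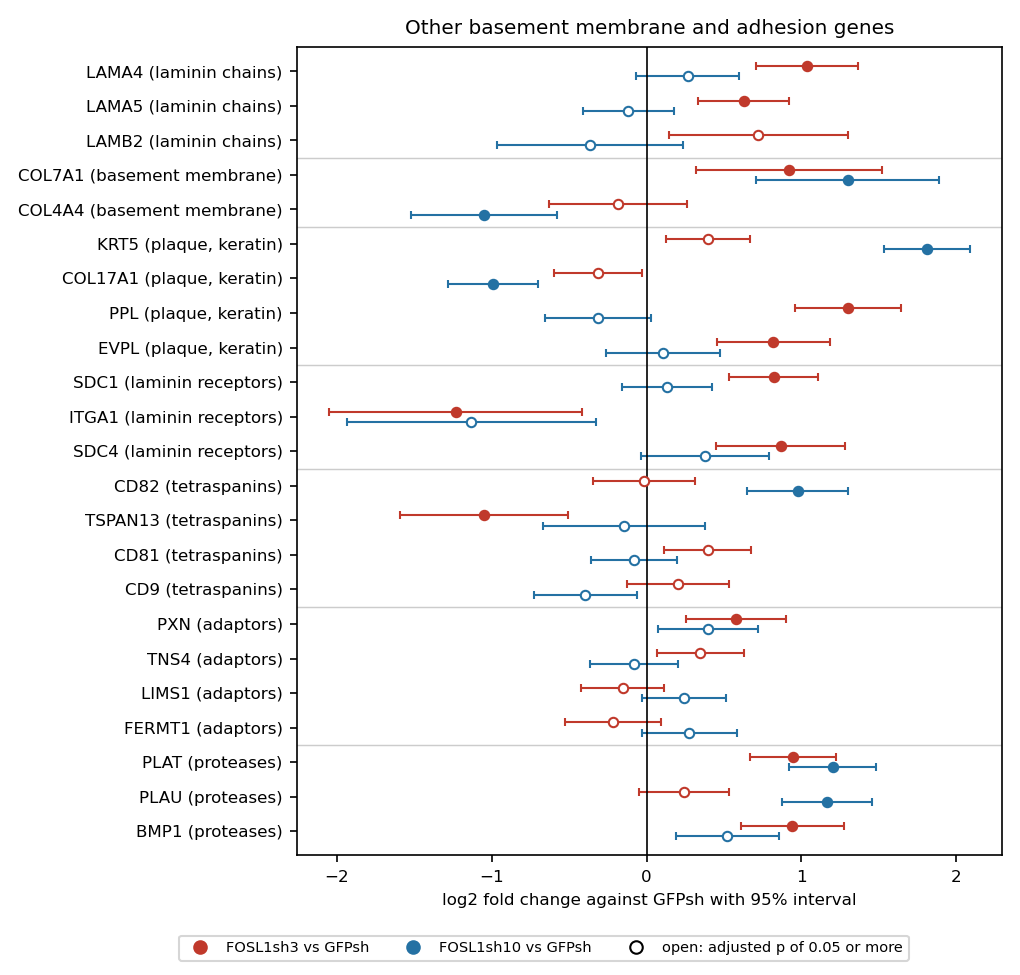
Log2 fold change against GFPsh (x axis) with its 95% interval for genes of 7 lists, each gene with its list in parentheses; at most 4 called genes per list are drawn, filled points have an adjusted p under 0.05, and both comparisons share the control libraries. PPL at 1.30 and KRT5 at 1.81 are the highest with FOSL1sh3 and FOSL1sh10, and PLAT and COL7A1 are filled in both comparisons.

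The genes whose levels across the 9 libraries were most like those of ITGB4, by Pearson correlation of log2 CPM over 9966 genes, were AMN and KANK2 (r = 0.98 each), PLXNB2 (0.98), SDC1 (0.97) and SLC48A1 (0.97). Each was called higher with FOSL1sh3 than with GFPsh and than with FOSL1sh10 under all alternatives run, with log2 fold changes against GFPsh of 0.82 to 1.28. For LAMB3 they were B3GALT6, EVPL, GCN1, ZNF566 and FBXO31 (r = 0.97 to 0.98), with 0.50 to 0.71 for 4 of them and 0.82 for EVPL. FBXO31 at 0.50 was not called, and the calls on GCN1 (any 1 GFPsh library or FOSL1sh3 replicate 3 left out, adjusted p 0.0564 to 0.0809, edgeR) and ZNF566 (any 1 GFPsh library or FOSL1sh3 replicate 1 or 3, 0.0763 to 0.185) depended on single libraries. The points are the same 9 libraries in 3 groups, so these values mostly describe the group means, and a high r among many genes is no sign of a link. The genes were picked for levels like those of ITGB4 or LAMB3 in these same libraries. Their calls largely follow from that choice and are no separate result.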

How the data were processed

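The authors deposited raw counts, whole numbers of reads per gene and library, with no normalization. Per the labels' protocols, libraries were made by low-input RNA-seq (MARS-seq) from RNA of RQI above 7. The submitters' processing notes name FastQC 0.11.5, STAR 2.5.3a and hg38. Per the file headers, exon counts came from featureCounts 1.6.0 with GENCODE 28 and no strand option. The sources used here do not say whether molecular identifiers were collapsed.

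The test was edgeR 4.0.16 (R 4.3.3) with these settings: minimum count 10, minimum total 15, TMM scaling and 1 quasi-likelihood fit over 9 libraries with the group as its term. Adjustment ran over 12814 genes, with calls at 0.05. Subunit ratios used log2(count + 0.5) and exact permutation tests (scipy 1.17.1). The alternatives were DESeq2 1.42.0, limma-voom 3.58.1, other scaling, no filter, only the groups compared, a replicate block and leaving out each library. Some genes of the lists are not reported here. The 9 genes and all lists were chosen with earlier results of these data known. Named genes were FOSL1, the 9 genes, tested genes whose exons overlap theirs, up to 4 called genes per list by p in the mean comparison, and the 5 genes most correlated with ITGB4 and with LAMB3 (mean of at least 30 counts). On simulated data for FOSL1sh3 against GFPsh (12649 genes) the fit recovered 66% of log2 changes of 0.75 and 98% of those of 1.5. Of its calls 5.75% were false. The simulation changed 200 genes, none of them among the lowest expressed, and set the spread by expression level and not gene by gene. These shares may therefore differ in the real data.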

Additional observations from a re-analysis of the deposited data

Results flagged for a closer look

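For 5 of the 9 genes the FOSL1sh3 effect differed from the FOSL1sh10 effect, by the test of the difference itself over the same fit (edgeR, adjusted p under 0.05). Of all genes 12.7% were called in this comparison, and for 30.7% the libraries of the hairpins did not overlap. The difference in log2 fold change, FOSL1sh3 minus FOSL1sh10, was 1.16 for ITGB4, 0.96 for ITGA3, 0.79 for PLEC and 0.44 for CD151, with each FOSL1sh3 library above each FOSL1sh10 library in all 4. For DST it was -0.66, with each FOSL1sh3 library below. FOSL1 itself differed by -0.05 (adjusted p = 0.9). The calls on CD151 and DST depend on single libraries, as given with those genes, and what makes the hairpins differ was not tested.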

How the results depend on the processing

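Of 486 alternative values of the 9 genes, 440 left the call as it was, 31 ended a call and 15 made one, and 469 kept their sign; no called value changed sign. Left-out libraries moved the counts of called genes to between 599 and 1803 for FOSL1sh3 (1392 with all libraries), 347 and 422 for FOSL1sh10 (676), 312 and 1002 for the mean (797), and 712 and 1920 between the hairpins (1633). When only GFPsh and FOSL1sh10 were fitted the count was 1124. With library totals in place of TMM, 34.0% of FOSL1sh3 calls were higher (48.0% with TMM), 77.5% of FOSL1sh10 calls (59.3%) and 17.6% of calls between the hairpins (45.1%), while the all-gene median moved to -0.06, 0.10 and -0.17. Relative to these medians ITGB4, ITGA3 and PLEC stayed higher with FOSL1sh3, and LAMB3 and CD151 lost their calls as given above. ITGA6 passed with FOSL1sh3 under library totals (adjusted p = 0.0483), no filter (0.0238), DESeq2 (0.0495) and without FOSL1sh3 replicate 2 (0.0359), and with FOSL1sh10 under no filter (0.0284), only both groups (0.0439) and without FOSL1sh10 replicate 2 (0.0361). LAMB3 between the hairpins passed with DESeq2 (0.0481) and without FOSL1sh3 replicate 2 (0.0392). The ITGB4 to ITGA6 log2 difference was 1.24 to 1.59 with 1 library left out.

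Replicate numbers shared by the groups gave no clear pairing over all groups. Same-numbered deviations correlated at -0.116 to 0.183 and different-numbered ones at -0.165 to 0.156. For GFPsh and FOSL1sh3 alone the same-numbered values were 0.183, 0.029 and 0.129, against -0.165 to 0.033 for different numbers. Whether those libraries were paired is not known. A replicate block gave 1456, 695, 812 and 1673 called genes in the same order, and among the 9 genes changed only ITGA6, called with FOSL1sh3 (adjusted p = 0.0357) and FOSL1sh10 (0.0403). Among other named genes the block ended the calls of FOSL1sh3 against GFPsh on COL7A1 (0.0573), ITGA1 (0.0628), KRT7 (0.0507) and ZNF566 (0.0521). Depth limits DST most, with 131 counts in its lowest library, and intervals cover the spread of 3 libraries per group.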
